A study of Mus musculus with 6 samples.

Results

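The genes described here are 10 parts of the Notch pathway, chosen by symbol out of 52081 genes listed in all 6 libraries of the series. They are the receptors Notch1, Notch2, Notch3 and Notch4, the ligands Jag1, Jag2, Dll1 and Dll4, and the transcription factors Hes1 and Heyl, which Notch signals are known to induce. All 10 symbols were found. Their UMIs (unique molecular identifiers, 1 for each captured transcript) were compared across cell classes and between the genotype labels.

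Notch receptors sit in the membrane of one cell and bind ligands of the Jagged and Delta-like families on a neighbouring cell. Binding leads to cleavage of the receptor, and the freed inner part enters the nucleus, joins the DNA-binding protein RBPJ and switches on targets of the Hes and Hey families. In blood vessels the pathway is known for the choice of tip cells, for arterial identity and for the maintenance of mural cells, and in bone for holding skeletal progenitors back from differentiation.

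Calluses of fractured mouse femurs were taken at 14 dpf (days post fracture) and their cells were sequenced in 3 libraries labelled CON and 3 labelled CKO. The study asks what the mechanosensitive channel Piezo1 does during endochondral ossification. The CON labels give the genotype as wt, and the study describes Piezo1 f/f mice as controls, while the CKO labels give Col2CreERT; Piezo3-/- and the series design names Piezo1. The mice were 12 weeks old. Tamoxifen (75 mg/kg) was injected daily for 5 days from day 5 in Piezo1 f/f mice as well as in the knockout, so CON was not untreated. Cre in this line is driven by Col2a1, a gene of chondrocytes. Nothing in the labels ties a library to an animal, and p-values measure the spread between these libraries.

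The libraries held 57626530 to 103784364 UMIs, and 3068 to 10025 cells each were kept, 41652 in all. CKO replicate 3 went against the male sex that the methods state, with Xist at 578 CPM (the UMIs of a gene scaled to the same total in each library or class) and 4 Y chromosome genes together at 0.0324, against 0.0993 to 0.17 and 108 to 209 in the other libraries, so fitted genotype values are also given without it. As a measure of free RNA, Col10a1, a gene of hypertrophic chondrocytes (HTCs), was counted in neutrophil-like cells at 1863, 124 and 44.3 CPM in CON and 1330.5, 9.6 and 1306 in CKO. Piezo1 in chondrocyte-like and HTC-like cells was at 66.9, 43.2 and 50.2 CPM in CON and 132, 46.2 and 47.2 in CKO, and a 3′ count does not show whether floxed exons remain, so it does not check the deletion. Pairs of libraries shared 4 to 35 cell barcodes.

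Classes were called "X-like" from marker lists after clustering, and 20 of them had at least 20 cells in 3 or more libraries. Endothelial-like cells (5298) carried their defining markers, with Pecam1 in 98.2% and Cdh5 in 97.7% of cells. Mural-like cells (1445), the pericytes and smooth muscle around vessels, carried Rgs5 in 97.7% and Acta2 in 90.2%. Within the endothelium 518 arterial-like, 1668 venous-like, 669 sinusoidal-like and 993 tip-like cells could be compared. Some of these names rest on few markers. A cluster of 746 venous-like cells carried 3 of 8 listed markers, and a cluster of 595 tip-like cells 3 of 7. CKO replicate 1 held 13 arterial-like and 18 tip-like cells and gives no value for either.

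On GRCm38 the receptor genes span chr2:26457903-26516663 (Notch1, minus strand), chr3:98013527-98150361 (Notch2, plus strand), chr17:32120820-32166852 (Notch3, minus strand) and chr17:34564268-34588503 (Notch4, plus strand). The ligand genes span chr2:137081456-137116644 (Jag1), chr12:112907819-112929776 (Jag2) and chr17:15367354-15376872 (Dll1), all on the minus strand, and chr2:119325784-119335962 (Dll4) on the plus strand. Hes1 spans chr16:30064384-30067796 and Heyl chr4:123233556-123249875, both on the plus strand, and all 10 are annotated as protein-coding. Gm42819 and Gm42820 lie inside Notch2 on its strand, and the second shares 541 exon bases with it. They held 6979 and 3898 UMIs against 17860 for Notch2, so Notch2 counts are uncertain.

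Promoters are shown for Dll4, the ligand with the largest endothelial share of UMIs, and Notch3, the receptor with the largest mural share. Each is the 250 bases before the transcript start in RefSeq's GRCm38.p6 annotation, read 5′ to 3′ on the gene's strand, with each GGAA or its reverse complement TTCC, the core of sites for ETS factors, in capitals. The windows are chr2:119325534-119325783 (plus strand) and chr17:32166891-32167140 (minus strand).
Dll4: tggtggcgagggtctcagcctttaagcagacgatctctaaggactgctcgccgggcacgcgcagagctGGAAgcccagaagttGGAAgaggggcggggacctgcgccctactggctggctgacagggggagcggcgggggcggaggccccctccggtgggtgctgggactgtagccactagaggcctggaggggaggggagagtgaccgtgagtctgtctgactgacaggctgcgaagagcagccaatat
Notch3: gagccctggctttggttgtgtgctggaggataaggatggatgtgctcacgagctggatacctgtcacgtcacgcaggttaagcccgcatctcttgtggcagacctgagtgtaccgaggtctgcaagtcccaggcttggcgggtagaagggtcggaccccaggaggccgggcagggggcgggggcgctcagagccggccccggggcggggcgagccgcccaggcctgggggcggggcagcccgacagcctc
The ETS core stood 2 times before Dll4 and 0 times before Notch3. It stood at least once in 93.4% of 32851 promoters of that length and in 6 of the 8 members found in the table (Hes1 and Heyl were not). The RBPJ core TGGGAA or TTCCCA, which holds the ETS core within it, stood in 21.6% of all promoters and in 0 of the 8 members, which says only that these letters are not in these windows.

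Endothelial-like cells were 12.7% of the cells and held 11.4% of all UMIs, yet they held 86.9% of the UMIs of Dll4, 83.2% of Jag2, 81.6% of Dll1, 76.9% of Notch4 and 56.8% of Notch1. Mural-like cells were 3.47% of the cells and held 71.2% of the UMIs of Notch3 and 40% of those of Heyl. More of the Heyl UMIs, 48.6%, were in stromal-like cells. Notch2 was the receptor counted mainly outside vessels, with 68.3% of its UMIs in stromal-like and 1.64% in endothelial-like cells. Jag1 was spread over endothelial-like (28.7%), mural-like (18.1%) and stromal-like cells (40.1%), and Hes1 lay mostly in stromal-like (54.9%) and endothelial-like cells (24.6%). Stromal-like cells held 58.1% of the UMIs of all genes, which is the value to read those stromal shares against.

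**Figure D1:**
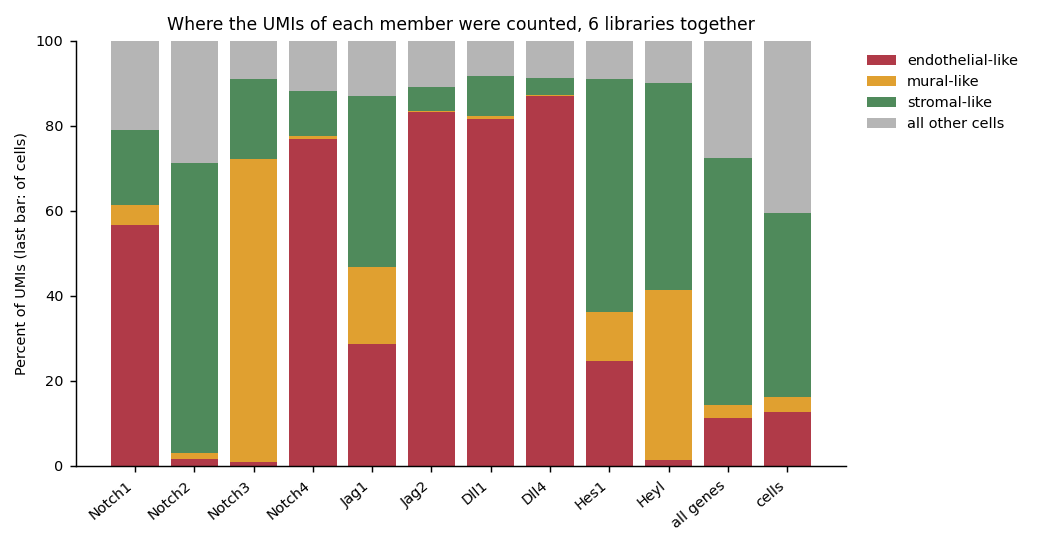
Percent of each member's UMIs (y axis) counted in endothelial-like, mural-like, stromal-like and all other cells of the 6 libraries together, beside all genes and all cells. Dll4, Jag2, Dll1 and Notch4 are mostly endothelial-like (76.9% to 86.9%) and Notch3 is mostly mural-like (71.2%).

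Levels below are CPM of the summed UMIs of a class in a library. Each level was compared between classes and not between genes. For each member the class with the highest mean was set against the next, and the next against the third, by a two-sided exact paired permutation test of log2 ratios within libraries (1 CPM added), adjusted over 20 pairs. The pairs were picked by their means in these same libraries. Their direction, and the count of libraries that follow it, is thus partly set by the ranking. None of the 20 passed an adjusted p of 0.05. The test cannot go below 0.0625 with 5 libraries or 0.03125 with 6, and the smallest adjusted p was 0.139.

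Notch1, a receptor needed for arterial fate and for the restraint of sprouting, was highest in arterial-like cells at 519, 475 and 374 CPM in CON and 420.3 and 274 in CKO replicates 2 and 3. Tip-like cells, next in order, held 323, 316 and 298 CPM in CON and 226 and 199.9 in CKO replicates 2 and 3. Arterial-like exceeded tip-like cells in 5 of 5 libraries by a log2 ratio of 0.59 ± 0.22 (SD), with an exact permutation p of 0.0625 and 0.139 after adjustment. Venous-like (234 ± 70, n = 6) and sinusoidal-like cells (234 ± 74.8, n = 4) lay within each other's spread. Outside endothelium the level was 81.7 ± 19.4 (SD, n = 6) in neutrophil-like and 77.8 ± 9.05 (SD, n = 6) in mural-like cells, and means in the named stromal classes were 8.43 to 28.3.

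Notch2, a receptor known for its part in osteoclast differentiation, had no single leading class. Neutrophil-like cells held 84.3, 78 and 100.01 CPM in CON and 113, 42.1 and 41.1 in CKO, so the libraries of both groups overlapped. The neutrophil-like (76.4 ± 29.7, n = 6), monocyte-like (76 ± 30.5, n = 5) and periosteal stem cell (PSC)-like means (68.4 ± 29.1, n = 6) did not differ beyond their spread, with exact permutation p of 0.938 and 0.562. Stromal means were 43.5 to 68.4, and the endothelial classes were low at 3.45 to 5.95.

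Notch3, the receptor of pericytes and vascular smooth muscle, was counted in mural-like cells at 894, 844 and 902 CPM in CON and 964, 698 and 487 in CKO. Fibroblast-like cells, next in order, held 40.4, 16.7 and 4.55 CPM in CON and 7.61, 27.5 and 41.8 in CKO, so every library was far lower there. The log2 ratio was 5.38 ± 1.48 and positive in 6 of 6 libraries, with an exact permutation p of 0.03125, the smallest 6 libraries allow, and 0.139 after adjustment. Fibroblast-like (23.1 ± 16.1) and PSC-like means (16 ± 11.8) did not differ beyond their spread, and endothelial means were 1.46 to 4.1.

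Notch4, a receptor largely restricted to endothelium, was counted in arterial-like cells at 299, 189.97 and 215 CPM in CON and 310.3 and 233 in CKO replicates 2 and 3. Tip-like cells held 181 ± 21.6 (SD, n = 5), sinusoidal-like cells 78 ± 25.7 (SD, n = 4) and venous-like cells 51.4 ± 25.3 (SD, n = 6). Arterial-like exceeded tip-like cells in 5 of 5 libraries by a log2 ratio of 0.44 ± 0.21, with an exact permutation p of 0.0625 and 0.139 after adjustment. The highest mean in a class outside endothelium was 11.6, in osteoclast-like cells.

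**Figure D2:**
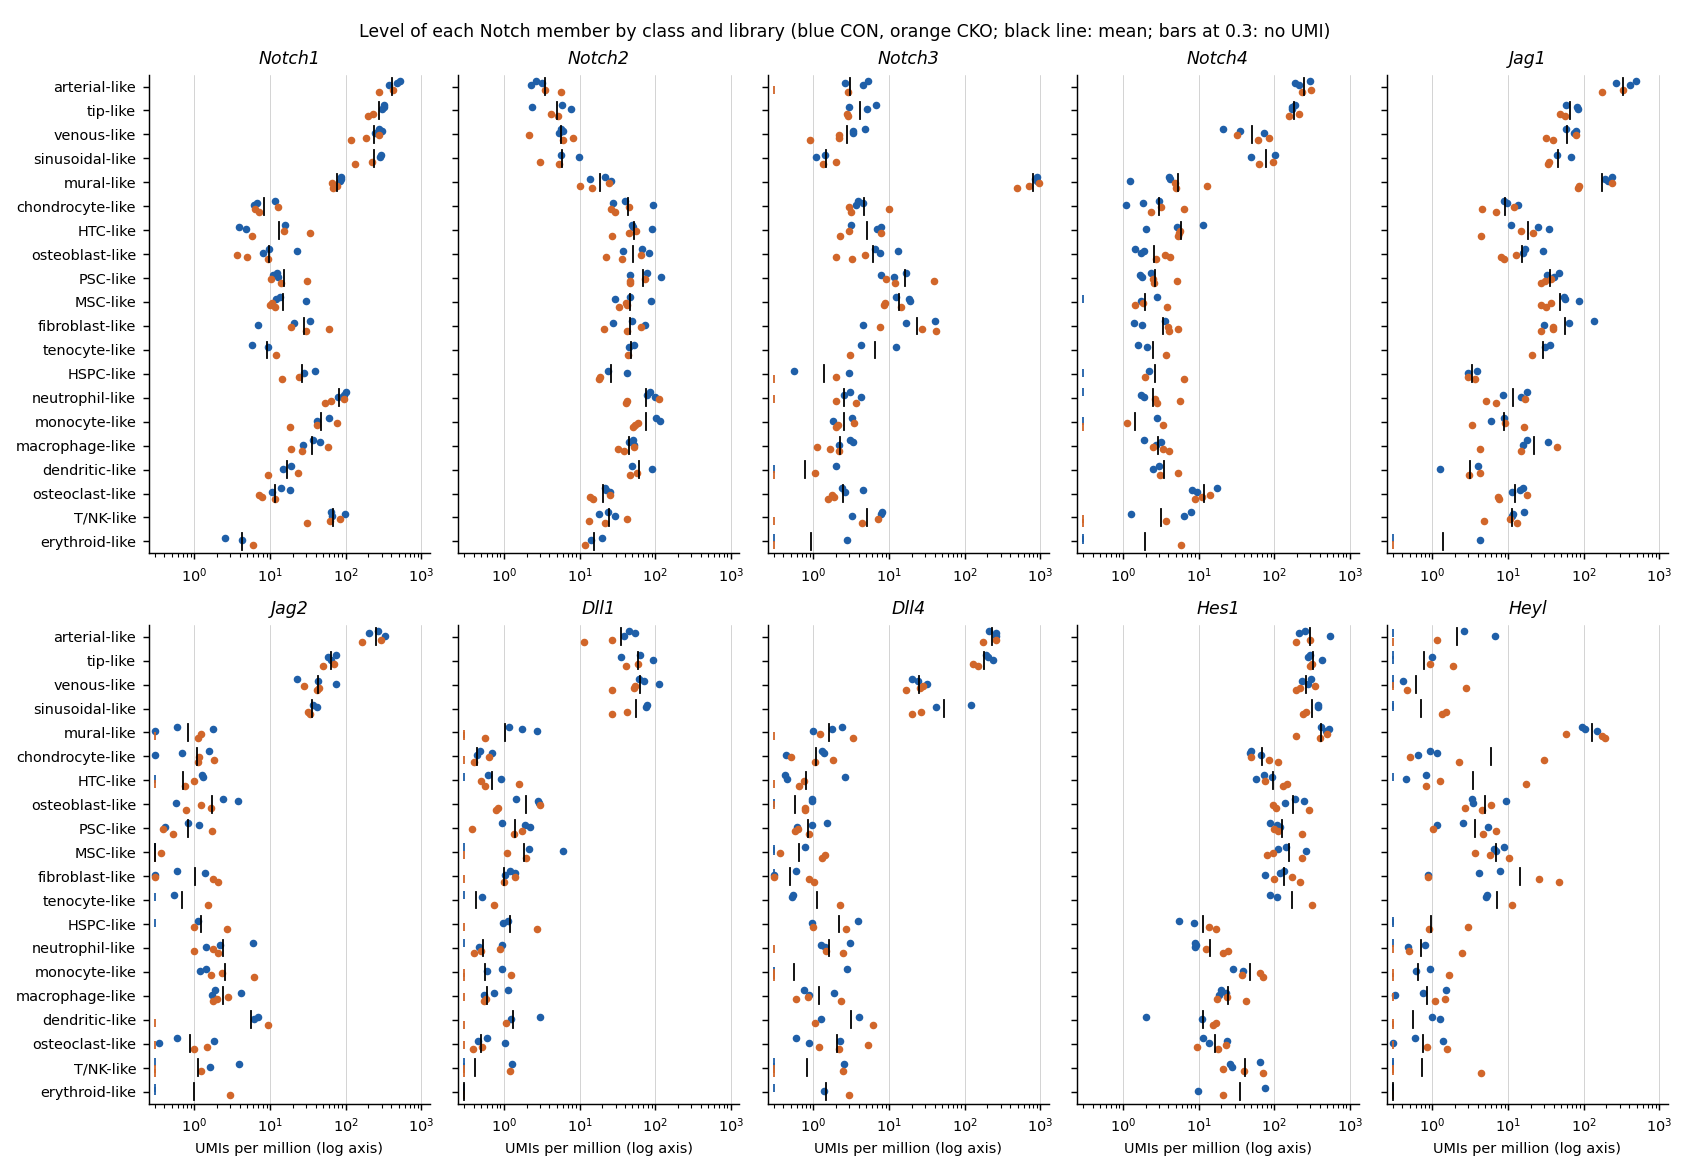
Level of each member in CPM (x axis, logarithmic) in 20 classes (y axis), where each point is a library and the line the mean over libraries. Values under 0.3 are drawn at 0.3, with bars for zeros. Notch3 and Heyl stand apart in mural-like cells (means 798 and 129), while Notch4, Jag2, Dll1 and Dll4 are highest in the endothelial classes.

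Among the ligands, Jag1 was counted in both kinds of vessel cell. Arterial-like cells held 487, 264 and 410.4 CPM in CON and 329 and 173 in CKO replicates 2 and 3. Mural-like cells held 235, 191 and 207 CPM in CON and 236, 87 and 83.9 in CKO, and CKO replicates 2 and 3 lay below the other libraries. Arterial-like exceeded mural-like cells in 5 of 5 libraries (log2 ratio 1.09 ± 0.52) and mural-like exceeded tip-like cells (66 ± 16.1) in 5 of 5 (1.17 ± 0.54), both with an exact permutation p of 0.0625 and 0.139 after adjustment. Fibroblast-like cells held 56.2 ± 41.2 (SD, n = 6), a spread set by CON replicate 1 at 136.

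Jag2, the other Jagged ligand, was counted in arterial-like cells at 269.9, 204 and 329 CPM in CON and 289 and 163 in CKO replicates 2 and 3. Tip-like cells held 63.2 ± 9.49 (SD, n = 5), and no class outside endothelium exceeded a mean of 5.63. The arterial-like level was above the tip-like level in 5 of 5 libraries by a log2 ratio of 1.94 ± 0.25, with an exact permutation p of 0.0625 and 0.139 after adjustment.

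Dll4, the ligand with which tip cells hold their neighbours back from sprouting, was counted in arterial-like cells at 206, 261 and 261 CPM in CON and 259 and 176 in CKO replicates 2 and 3. Tip-like cells held 189, 200.2 and 237 CPM in CON and 131 and 151 in CKO replicates 2 and 3, with CKO replicate 2 the lowest. The arterial-like level was above the tip-like level in 5 of 5 libraries (log2 ratio 0.37 ± 0.36; exact permutation p of 0.0625, 0.139 after adjustment). This order depended on the clusters, since the tip-like mean was the higher one without doublet removal (187 against 181 CPM) and at a cluster resolution of 1.2 (204 against 165 CPM). Sinusoidal-like cells held 52.7 ± 47.4 (SD, n = 4), with CON replicate 2 at 122 above the others, and venous-like cells 24.6 ± 5.39 (SD, n = 6). No class outside endothelium exceeded a mean of 3.13.

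Dll1, a further Delta-like ligand, had another order. Venous-like (62.9 ± 27.7, n = 6), tip-like (58.7 ± 22.6, n = 5) and sinusoidal-like cells (55.3 ± 25.1, n = 4) did not differ beyond their spread, with exact permutation p of 0.812 and 0.875. Arterial-like cells were the lowest of the 4 at 45, 53.8 and 38.5 CPM in CON and 26.6 and 11.4 in CKO replicates 2 and 3. The highest mean in a named class outside endothelium was 1.96, in osteoblast-like cells.

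Arterial-like cells were then set against all other endothelial-like cells of the same library. The members and the other pathway genes were left out of the clustering, but the split rests on other genes of the same cells and is not independent of what varies with them. Jag1 was higher in 5 of 5 libraries by a log2 ratio of 2.57 ± 0.56 (333 ± 122 against 54 ± 15.9 CPM), Jag2 by 2.13 ± 0.29 (251 ± 66.7 against 54.9 ± 5.12 CPM) and Dll4 by 1.67 ± 0.27 (233 ± 39.3 against 72.6 ± 12.4 CPM). Of the receptors, Notch4 was higher in 5 of 5 libraries by 1.21 ± 0.12 (249.6 ± 52.8 against 106 ± 18.1 CPM) and Notch1 by 0.76 ± 0.19 (412 ± 94.6 against 245 ± 61.2 CPM). These 5 genes each had an exact permutation p of 0.0625, the smallest that 5 libraries allow, and 0.125 after adjustment over the 10 members. Dll1 was higher in 1 of 5, at a log2 ratio of -0.68 ± 0.52 (35.1 ± 16.5 against 53.1 ± 18.7 CPM) and an adjusted exact permutation p of 0.179. Hes1 was higher in 2 of 5, at a log2 ratio of 0.03 ± 0.36 (301 ± 142 against 277 ± 48.1 CPM), with no common direction.

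**Figure D3:**
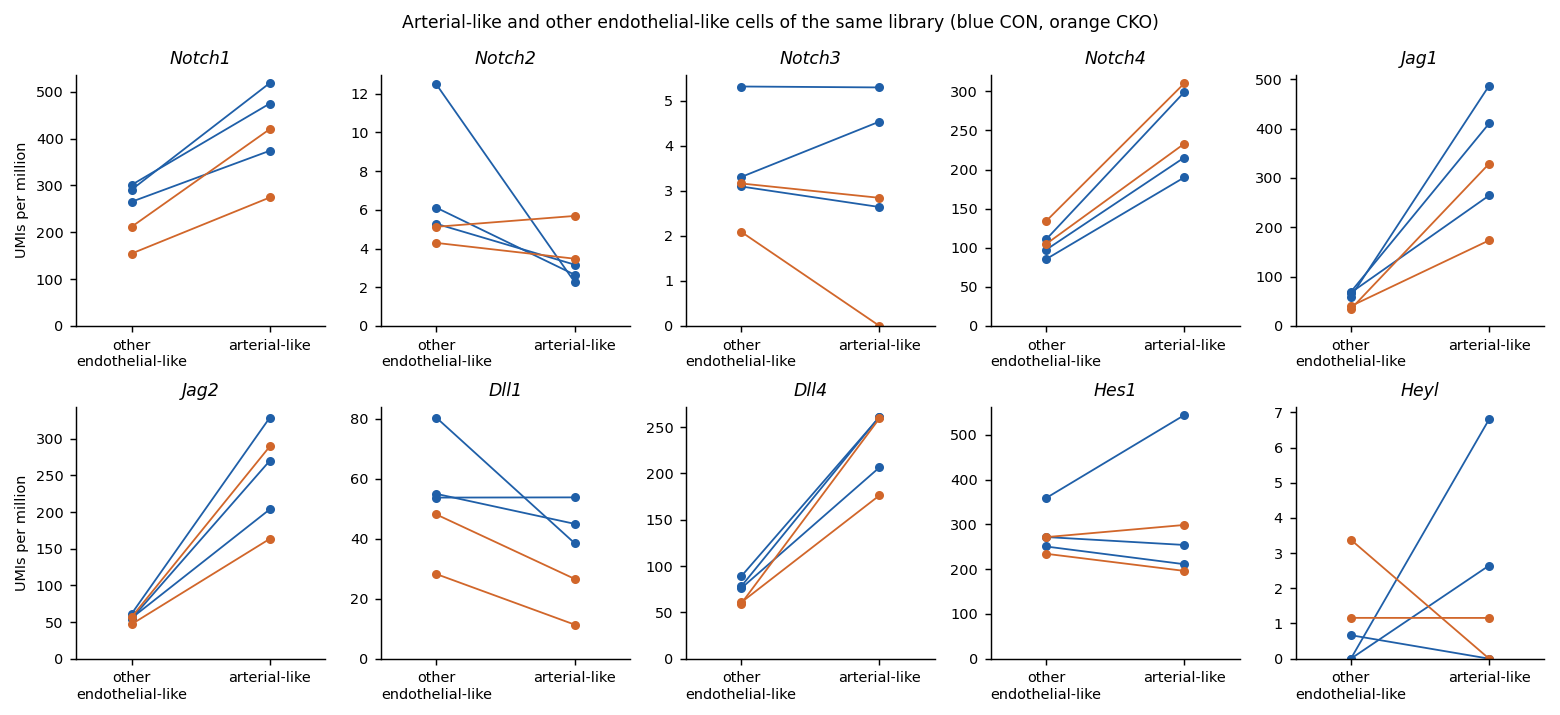
Level of each member in CPM (y axis) in arterial-like and in other endothelial-like cells, with a line for each of the 5 libraries that held enough of both. All 5 lines are higher on the arterial-like side for Notch1, Notch4, Jag1, Jag2 and Dll4, and 1 of 5 is for Dll1.

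Of the targets, Hes1, a repressor that Notch and other signals induce, was counted in mural-like cells at 416, 525 and 479.6 CPM in CON and 501, 192 and 399.7 in CKO. Tip-like (325 ± 58.9, n = 5), sinusoidal-like (314 ± 75.1, n = 4), arterial-like (301 ± 142, n = 5) and venous-like means (265 ± 57.9, n = 6) followed within their spread, with exact permutation p of 0.438 and 0.625 for the first neighbours in this order. Osteoblast-like cells held 177 ± 77.8 (SD, n = 6) and chondrocyte-like cells 68.5 ± 26.5 (SD, n = 6). Heyl, a target typical of mural cells, was counted in mural-like cells at 93.8, 105 and 150.4 CPM in CON and 58.3, 174 and 191 in CKO, and the groups overlapped. Fibroblast-like cells held 7.72, 4.18 and 0.863 CPM in CON and 0.888, 25.7 and 46.8 in CKO, so CKO replicates 2 and 3 carried most of that mean. The mural-like level was above the fibroblast-like level in 6 of 6 libraries (log2 ratio 3.97 ± 1.58), with an exact permutation p of 0.03125 and 0.139 after adjustment. Endothelial means of Heyl were 0.607 to 2.12, where those of Hes1 were 265 to 325.

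Within the mural-like cells 165 were smooth-muscle-like, in numbers that could be used in the CON libraries alone. Their levels were 816 ± 40 (SD, n = 3) for Notch3, 354 ± 22.6 for Jag1, 789.6 ± 319.6 for Hes1 and 56.5 ± 19.6 for Heyl. The remaining mural-like cells held 810.2 ± 181 (SD, n = 6), 154 ± 63.3, 394 ± 114 and 135 ± 50.2 of the same genes. The first set rests on the CON libraries alone and the second on all 6, CKO included. The sets were not tested against each other.

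A stromal cluster that no marker list named also held Notch3 and Heyl in every library. It comprised 1366 cells, 664 of them from CKO replicate 2, and its leading genes included Gdpd2, Mmp9, Cldn10, Chn1 and Foxs1. Notch3 stood at 97.7, 48.8 and 54.5 CPM in CON and 75.5, 68.7 and 78.6 in CKO. Heyl stood at 64.9, 56.7 and 58.8 in CON and 17.6, 74.2 and 73.9 in CKO. CKO replicate 1, which lay below the others, had only 20 cells in this cluster. The means, 70.6 ± 17.7 and 57.7 ± 20.9, lay above those of the named stromal classes, of which fibroblast-like cells were highest (23.1 and 14.4). Hes1 was at 206 ± 71.7, and the targets Hey1 and Hey2 were at 89.8 ± 38 and 11.8 ± 3.94. The 10 mural markers summed to 384 to 1073 CPM in this cluster, 598 to 2780.3 in fibroblast-like and 18781 to 26664 in mural-like cells, and their part in these levels was not tested. The cluster was singled out after its values were seen and is described with no test.

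**Figure D4:**
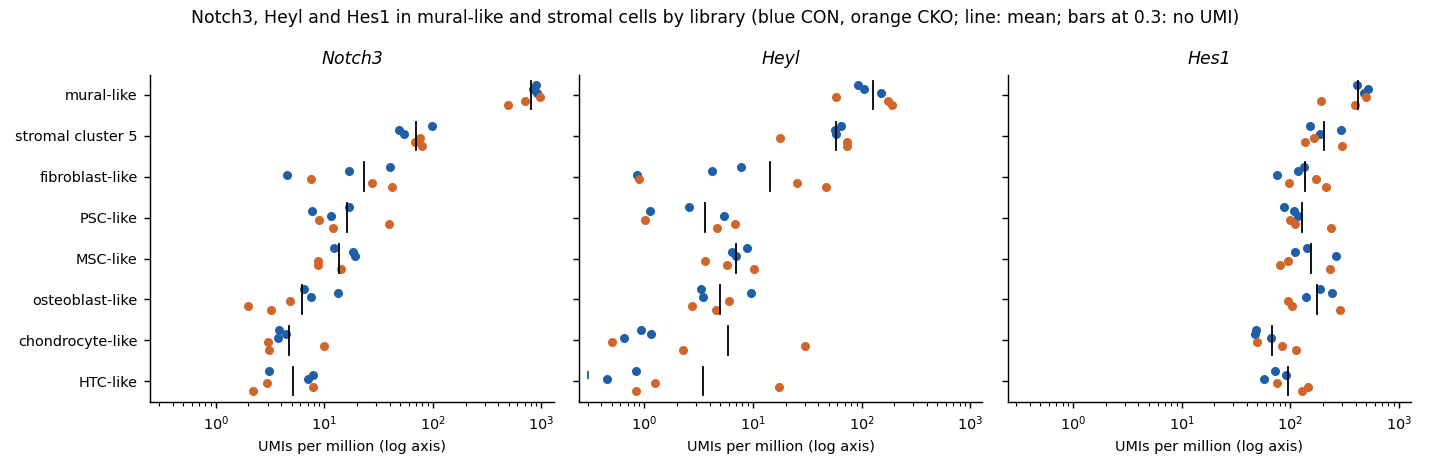
Levels of Notch3, Heyl and Hes1 in CPM (logarithmic axis) in mural-like cells, in the unnamed stromal cluster (stromal cluster 5) and in other stromal classes, with a point for each library and values under 0.3 drawn at 0.3. The cluster's 6 libraries hold Notch3 at 48.8 to 97.7, between fibroblast-like (4.55 to 41.8) and mural-like cells (487 to 964).

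Shares of cells with at least 1 UMI were taken after thinning each cell to 500 UMIs, with 95% Wilson intervals that cover counting error only. Notch3 was found in 33.3% (30.9% to 35.8%) of mural-like and 0.13% of neutrophil-like cells, whose median depths were 7112 and 2311 UMIs. Hes1 was found in 23.2% (21.1% to 25.4%) of mural-like and 0.89% of neutrophil-like cells. Dll4 was found in 11.2% (8.76% to 14.2%) of arterial-like, 8.46% (6.88% to 10.3%) of tip-like and 0.0651% of neutrophil-like cells, at median depths of 7124 and 8258 UMIs for the first 2. For Notch1 and Notch2 the neutrophil-like shares (5.03% and 5.32%) were above those of HTC-like cells (0.319% and 2.79%) and are no background. Without thinning, Notch3 was found in 97.5% and Hes1 in 85.7% of mural-like cells and Dll4 in 68.9% of arterial-like cells.

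Of 40 other pathway genes, 16 had their highest mean in an endothelial class, 4 in mural-like cells and 20 elsewhere. In that order targets split 3, 1 and 1, glycosyltransferases 2, 0 and 3 and proteases 4, 1 and 4. Of the targets, Hes5 was hardly counted even in its highest class, sinusoidal-like cells (0.666 ± 1.03, n = 4). Nuclear factors split 4, 0 and 3, receptor turnover genes 2, 1 and 5, ligand ubiquitination genes 1, 0 and 2 and other ligands 0, 1 and 2. The same split was not counted over all genes, so these counts have no background. The genes named next, other than Rbpj, were highest in an endothelial class or in mural-like cells. Among further targets, Hey1 was at 227 ± 53.9 (SD, n = 5) in arterial-like and 50.7 ± 8.32 in tip-like cells, and Nrarp at 132 ± 31.9 and 103 ± 14.7. Hey2 was at 32.1 ± 11.6 (SD, n = 6) in mural-like and 2.75 ± 2.29 in fibroblast-like cells, the next class. Mfng, a glycosyltransferase that tunes how receptors bind ligands, was highest in tip-like cells (121 ± 24). Adam10, a protease that cuts the receptor after ligand binding, was at 250.03 ± 37.9 in arterial-like and 232 ± 46.3 in tip-like cells. Dlk1, a ligand without the domain needed to activate receptors, was at 293 ± 104 in mural-like and 191 ± 122 in mesenchymal stem cell (MSC)-like cells. Rbpj, named after its values were seen, was highest in macrophage-like cells (154 ± 43.1).

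The genes most like each member were taken by Pearson's r of class means over 20 classes, a description, since classes share libraries. Dll4 and Notch4 followed each other (r = 0.964), as did Dll4 and Jag2 (0.963) and Notch3 and Heyl (0.943). Notch3 was most like Des, Npy1r and Kcnab1 (0.971, 0.962 and 0.958) and Heyl like Foxs1, Tbx3os1 and Tent5b (0.975, 0.966 and 0.963). Dll4 was most like Gm9917, Wscd1 and Cldn5 (0.981, 0.98 and 0.974), Notch4 like Gm9917, Dll4 and Wscd1 (0.979, 0.965 and 0.958), Jag2 like Podxl, Tlx1 and Gm39822 (0.972, 0.971 and 0.969) and Dll1 like Robo4, Gm47625 and Cyyr1 (0.982, 0.982 and 0.982). Notch1 was most like Cds2, Ppp6r3 and Pcsk7 (0.967, 0.955 and 0.932), Jag1 like Rock2, Oaz2 and Arid5b (0.931, 0.93 and 0.925) and Hes1 like Cdc42ep1, Nckap1 and 9630050E16Rik (0.96, 0.952 and 0.952). Notch2 was most like Gm42820, Gm42819 and Akt2 (0.965, 0.943 and 0.917), of which the first pair are the genes that lie inside it.

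Libraries labelled CKO were compared with CON in 6 classes by edgeR's quasi-likelihood test on UMIs summed per library, adjusted over all genes of a class. No member passed an adjusted p of 0.05 in any class, and neither did any other gene (0% of 13782 genes in endothelial-like, 10721 in mural-like, 14909 in chondrocyte-like and HTC-like, 10915 in osteoblast-like, 12350 in fibroblast-like and MSC-like and 12536 in macrophage-like cells). At an unadjusted p under 0.05 stood 1 of 9 members tested in endothelial-like cells (5.52% of all genes), 0 of 6 in mural-like cells (3.69%), 2 of 9 in chondrocyte-like and HTC-like cells (1.76%), 2 of 6 in osteoblast-like cells (3.28%), 1 of 7 in fibroblast-like and MSC-like cells (1.51%) and 0 of 7 in macrophage-like cells (1.64%). The other members had too few UMIs for the filter. DESeq2 called 4 genes in endothelial-like, 4 in macrophage-like and 1 in fibroblast-like and MSC-like cells and 0 in the other classes, none of them a member. CON and CKO levels did not overlap for Dll1 in endothelial-like cells (11.4% of all genes), Notch1 in mural-like cells (8.7%), Notch3 and Jag1 in osteoblast-like cells (7.94%), Notch4 in fibroblast-like and MSC-like cells (4.29%) and no member in chondrocyte-like and HTC-like (5.07%) or macrophage-like cells (4.6%).

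In endothelial-like cells Dll1 was at 54.1, 53.8 and 77.3 CPM in CON and 38.7, 46.2 and 27 in CKO, with every CKO library below CON. Its fitted log2 fold change of CKO against CON was -0.69 ± 0.24 (SE) with an adjusted p of 0.785, and -0.54 without CKO replicate 3. Notch4 was at 128, 96.1 and 106 CPM in CON and 149.8, 149.98 and 114 in CKO, with a log2 fold change of 0.38 ± 0.18, and 0.45 without CKO replicate 3. Notch1 was at 312, 319 and 273 CPM in CON and 340.3, 231 and 163 in CKO, so the CKO libraries lay on both sides of CON. Its log2 fold change was -0.27 ± 0.25, and -0.08 without CKO replicate 3 but -0.53 without CKO replicate 1. The log2 fold changes of Dll4 (-0.19 ± 0.19), Jag2 (-0.10 ± 0.18), Jag1 (-0.13 ± 0.35) and Hes1 (-0.10 ± 0.22) lay nearer to 0. Without CKO replicate 3 they were -0.14, -0.01, 0.12 and -0.06. That of Jag1 turned there, and it was -0.67 without CKO replicate 1. Venous-like cells were 37.1%, 41.2% and 27.2% of endothelial-like cells in CON and 33%, 21.7% and 26.6% in CKO. Sinusoidal-like cells were 3.97%, 5.84% and 19% in CON and 4.72%, 23.2% and 8.86% in CKO. The part of this makeup in the endothelial-like values was not tested.

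In mural-like cells the log2 fold change was -0.28 ± 0.30 for Notch3, 0.34 ± 0.44 for Heyl and -0.34 ± 0.36 for Hes1, and -0.10, -0.05 and -0.48 without CKO replicate 3. Single libraries moved all 3. Notch3 was at -0.49, Heyl at 0.74 and Hes1 at -0.55 without CKO replicate 1, and Hes1 at -0.05 without CKO replicate 2. That of Jag1 was -0.62 ± 0.37, and it was -1.20 without CKO replicate 1 and -0.40 without CKO replicate 3. The adjusted p with all libraries was 0.98 for each. Mural-like cells numbered 100, 539 and 597 in CON and 28, 55 and 126 in CKO. Smooth-muscle-like cells were 30%, 16.7% and 4.52% of them in CON and 17.9%, 9.09% and 6.35% in CKO. The part of cell numbers and makeup in these values was not tested.

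In chondrocyte-like and HTC-like cells, the cells in which this Cre is driven, Hes1 was at 52.9, 51.3 and 62.1 CPM in CON and 55.2, 117 and 119 in CKO, with CKO replicates 2 and 3 above the other libraries. The log2 fold change was 0.84 ± 0.36 with an adjusted p of 1.00, and 0.59 without CKO replicate 3. The clusters that made up the class differed in their parts from library to library. These parts are given by cells, while levels come from summed UMIs, so deeper cells weigh more. HTC-like cells had a median of 18012 UMIs and were 16.1% of the cells of the class in CKO replicate 2. CKO replicate 2 had 439 of its 546 cells in the cluster led by Col10a1 and Hapln1 (cluster 1), whose median was 769 UMIs a cell, and 4 and 15 in the clusters led by Ucma (cluster 4) and by Hapln1 and Epyc (cluster 7). Cluster 1 also held 1491 of 2104 cells in CON replicate 1 and 915 of 1288 in CKO replicate 1. CKO replicate 3 had 412 of its 2128 cells in the HTC-like cluster led by Ihh (cluster 12). That cluster held 89 of 2104, 7 of 621 and 15 of 1020 cells in CON. All HTC-like cells were 27.5% of the class in CKO replicate 3 and 31.7% in CON replicate 3, but in different clusters. The other HTC-like cluster (cluster 10), led by Chil1, Mmp3 and Lcn2, held 308 cells in CON replicate 3 and 174 in CKO replicate 3. It carried 4 of 6 listed HTC markers, and cluster 12 carried 6 of 6. In cluster 10 Hes1 was at 144, 101 and 50.7 CPM in CON and 101, 130.3 and 242 in CKO. These overlapped, and CKO replicate 3 was the highest. The part of cluster makeup in the Hes1 levels of the whole class was not tested. In the whole class Heyl was at 0.911, 1.05 and 0.554 CPM in CON and 0.665, 23.3 and 1.84 in CKO. CKO replicate 2 thus carried its log2 fold change of 3.14 ± 1.23. It was 0.69 without CKO replicate 2 and 3.69 without CKO replicate 3. The 10 mural markers summed to 333 CPM in CKO replicate 2, the lowest of the 6 (333 to 957), and the source of its Heyl UMIs was not tested. Hey1, named after its values were seen, had a log2 fold change of 2.69 ± 1.04 in these cells, 1.70 ± 0.74 in fibroblast-like and MSC-like and 0.51 ± 0.19 in endothelial-like cells, with adjusted p of 0.785 or more. Without CKO replicate 3 these were 3.19, 1.08 and 0.56, and the first was 0.65 without CKO replicate 2. When the libraries were clustered without integration, the Hey1 values in the same order were 0.79, 0.69 and 0.89.

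In osteoblast-like cells Notch3 was at 6.45, 13.3 and 7.49 CPM in CON and 4.82, 1.98 and 3.23 in CKO. Its log2 fold change was -1.44 ± 0.45 with an adjusted p of 0.971, and -1.51 without CKO replicate 3. The class held 130, 82 and 210 cells in CON and 52, 1421 and 523 in CKO. Mural-like cells, where Notch3 was highest, numbered 100, 539 and 597 in CON and 28, 55 and 126 in CKO. The part of their free RNA in these low Notch3 levels was not tested. Jag1 was at 16.7, 28.6 and 15.5 CPM in CON and 12.7, 8.12 and 8.8 in CKO, every CKO library below CON, with a log2 fold change of -0.98 ± 0.32, and -0.93 without CKO replicate 3. When the libraries were clustered without integration, that of Notch3 turned to 0.27 and that of Jag1 was -0.49. The class then held other cells, with 2019 against 1421 in CKO replicate 2 and 197 against 523 in CKO replicate 3. In fibroblast-like and MSC-like cells Jag1 was at 79.3, 59.5 and 35 CPM in CON and 39, 35.1 and 30.4 in CKO, which overlapped, with a log2 fold change of -0.70 ± 0.28 and an adjusted p of 1.00, and -0.61 without CKO replicate 3. Fibroblast-like cells were 22.1% to 88.9% of that class in the CON and 29.8% to 71.1% in the CKO libraries. In macrophage-like cells the 7 members tested lay between -0.69 (Notch3) and 0.47 (Hes1), which were -0.93 and 0.00 without CKO replicate 3. Of the other pathway genes, 31 to 36 were tested in each class, 0 were called and 0 to 3 had an unadjusted p under 0.05.

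The difference of the genotype effect between chondrocyte-like and HTC-like cells and endothelial-like cells was fitted in edgeR, and 0 of 15568 genes (0%) and 0 of 10 members were called. At an unadjusted p under 0.05 stood 555 genes, with Notch1 (0.93 ± 0.39) and Hes1 (0.83 ± 0.35) among them, which were 1.11 and 0.52 without CKO replicate 3. Over the 6 classes, CON and CKO levels did not overlap in 5 of 44 pairs of member and class. In the single classes 4.29% to 11.4% of all genes did not overlap. Leaving out a library can only raise such counts, for members as for all genes. The count was 10 of 44 (16% of all genes) without CON replicate 1, 7 of 44 (11.8% of all genes) without CON replicate 2 and 10 of 44 (16% of all genes) without CON replicate 3, and 20 of 44 (33.2% of all genes) without CKO replicate 1, 8 of 44 (12.5% of all genes) without CKO replicate 2 and 11 of 44 (12.8% of all genes) without CKO replicate 3.

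**Figure D5:**
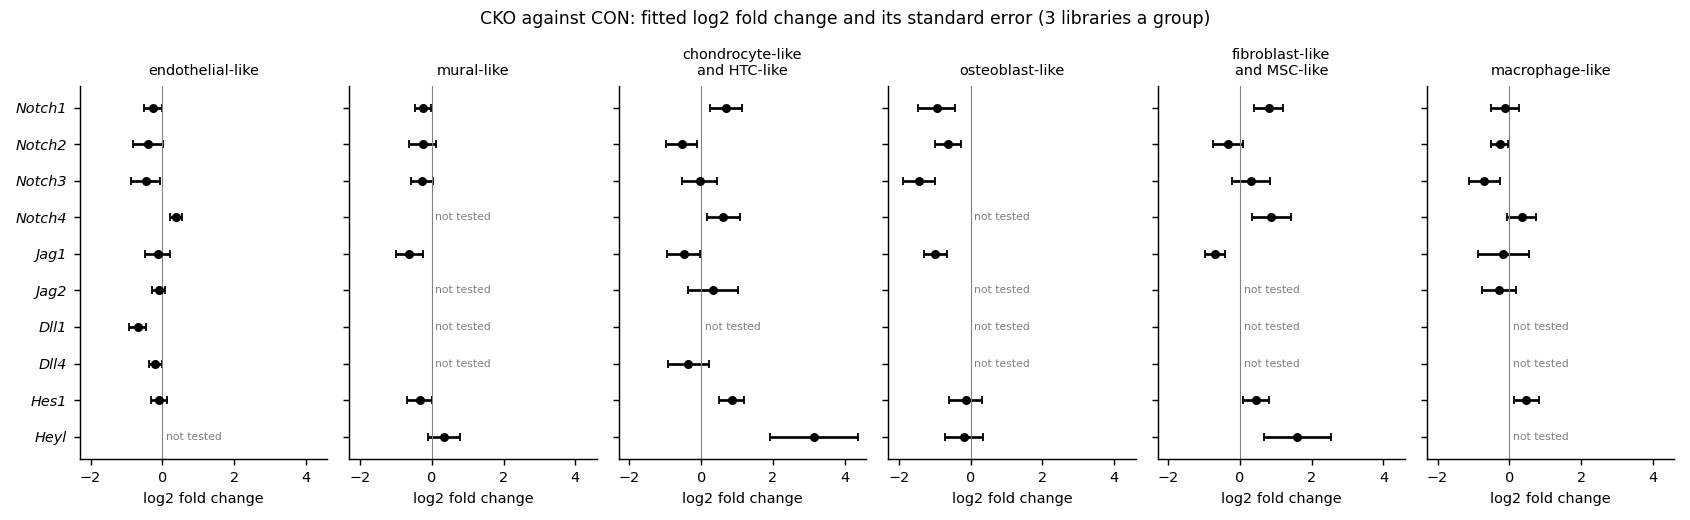
Fitted log2 fold change of CKO against CON (x axis) for each member (y axis) in 6 classes, with its standard error as a bar. Heyl in chondrocyte-like and HTC-like cells (3.14 ± 1.23) lies farthest from 0, and CKO replicate 2 carries that difference.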

How the data were processed

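The deposited files hold UMI counts per gene and cell barcode of 6 libraries, which the authors made with Cell Ranger (6.1.1 for replicates 1, 6.1.2 for the others, per the file headers) on GRCm38. Genes listed in all libraries were used. Barcodes with at least 500 UMIs, 200 genes and at most 20% mitochondrial UMIs were kept (44698 of 46944), and 3046 barcodes with the highest Scrublet scores (scanpy 1.11.5) were removed as likely doublets. Libraries were integrated by RPCA in Seurat 5.3.0 and clustered by the Leiden algorithm at a resolution of 0.8 without the Notch genes. Clusters were named from at least 3 detected markers. The rules for mixed clusters and for clusters with few markers were refined after the clusters were seen.

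Counts were summed per class and library with at least 20 cells and tested in edgeR 4.0.16, with DESeq2 1.42.0 as an alternative, at an adjusted p of 0.05. The standard error (SE) given with an edgeR log2 fold change was its absolute value divided by the square root of the quasi-likelihood F. The edgeR script was tested on simulated data. Paired permutation tests enumerated all sign changes, and Wilson intervals were from scipy 1.17.1. Other alternatives changed the filters, doublet removal, integration, resolution and the libraries used. The named genes are the 10 members, listed pathway genes that share their top classes and the 3 genes most like each member. Members and lists were chosen with earlier results of these data known. Opposite-strand neighbours overlap Notch1, Notch3, Notch4, Dll1 and Dll4.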

Additional observations from a re-analysis of the deposited data

How the results depend on the processing

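No member was called in any class under any alternative run. The number of all genes called was 0 in the reported fits. Without a filter on low counts edgeR called 113 genes in endothelial-like, 53 in mural-like, 22 in chondrocyte-like and HTC-like, 34 in osteoblast-like, 64 in fibroblast-like and MSC-like and 6 in macrophage-like cells, and 88 for the difference between classes. DESeq2 called 4 in endothelial-like, 1 in fibroblast-like and MSC-like and 4 in macrophage-like cells. Leaving out 1 library gave 0 to 2 genes in mural-like cells (Mmp9 and Pi15 without CKO replicate 1) and 0 to 1 in macrophage-like cells (Igha without CKO replicate 2), and the cause was not tested.

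The log2 fold change of Jag2 in endothelial-like cells turned to 0.19 without integration and to 0.0605 without replicate 3 of both groups, and that of Dll4 to 0.0785 without integration. In the same cells that of Jag1 turned to 0.0256 without integration and 0.14 without replicate 3 of both groups, and that of Hes1 to 0.16 without replicate 3 of both groups. Notch3 in osteoblast-like cells turned to 0.27 without integration, and Hes1 in macrophage-like cells to -0.009 without replicate 3 of both groups. Over libraries left out the log2 fold change was -0.0481 to 0.74 for Heyl, -0.49 to -0.10 for Notch3 and -0.55 to -0.0487 for Hes1 in mural-like cells, and -0.67 to 0.12 for Jag1 and -0.21 to 0.12 for Hes1 in endothelial-like cells. Without integration 2 of 9 members had an unadjusted p under 0.05 in endothelial-like cells, where 1049 of 12603 genes did. In chondrocyte-like and HTC-like cells 0 of 10 members and 384 of 15385 genes did. In osteoblast-like cells 0 of 6 members and 371 of 10456 genes did. In fibroblast-like and MSC-like cells 0 of 5 members and 54 of 11172 genes did. In macrophage-like cells 1 of 6 members and 196 of 11817 genes did. The median log2 fold change of the osteoblast-like members was -0.0356 without integration, against -0.79 as reported. In arterial-like against other endothelial-like cells the log2 ratio of Notch3 turned to 0.17 without integration, that of Hes1 to -0.0337 without doublet removal and -0.00155 at a cluster resolution of 0.4, and that of Heyl to -0.19 without doublet removal. Over libraries left out these were -0.48 to 0.0181, -0.12 to 0.10 and -0.25 to 1.02. The ratios of Notch1, Notch4, Jag1, Jag2, Dll1, Dll4 and Notch2 kept their direction under each alternative. For none of these was the cause tested.

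The class with the highest level was the same for 9 to 10 of the 10 members over libraries left out and for 8 to 10 under the other alternatives, where Dll4 moved to tip-like cells, Notch2 to monocyte-like and Dll1 to tip-like cells. Pairs of member and class without overlap numbered 7 to 20 of 44 over libraries left out, against 5 with all libraries. Of all genes, 11.8% to 33.2% did not overlap over libraries left out, and 4.29% to 11.4% by class with all libraries. With the replicate number as a block, 0 genes were called in each of the 6 classes, and the log2 fold change was -0.69 for Dll1 in endothelial-like and -0.76 for Jag1 in mural-like cells. Same-numbered libraries did not deviate together in every pair (correlations -0.264 to 0.461), so the number was not taken as a pairing. For replicate 1 the correlation was 0.309 in endothelial-like, 0.272 in mural-like, 0.295 in chondrocyte-like and HTC-like and 0.461 in osteoblast-like cells. It was -0.0537 in fibroblast-like and MSC-like and 0.0417 in macrophage-like cells. Replicates 1 also shared Cell Ranger 6.1.1 and low medians of 2554 (CON) and 2728.5 (CKO) UMIs a barcode. Replicates 3 of both groups listed 55357 genes, and the other libraries 55450. Replicates 1 thus shared a software version and replicates 3 a gene list. Whether the number also marks shared handling of the tissue or libraries was not tested. Depth limits the rarest values, since 3 UMIs amount to 7.94 CPM in the smallest arterial-like sum and 24 in the smallest T/NK-like sum.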

Other observations

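Among clusters that no marker list named, endothelial cluster 5 (568 cells) held Jag2 at 105 ± 18.2 (SD, n = 5) CPM, between the arterial-like (251) and tip-like means (63.2), with Dll4 at 62.7 ± 13.4 and Notch4 at 109.8 ± 23.4. Stromal cluster 14 (576 cells) held Notch3 at 26 ± 21.1 (SD, n = 6) and Heyl at 23.9 ± 18.1, and CON replicate 1 was highest there for both, at 67.1 and 53.4. These clusters were picked after their values were seen and were not tested.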
